A study of Mus musculus and Ochotona curzoniae and Rattus norvegicus with 18 samples.

Results

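Collagen chain genes encode the subunits of the collagens, the main structural proteins of the extracellular matrix. Here they were taken as every gene whose symbol is COL, a type number, A and a chain number, and which was found once in the Tibetan pika table and once in the mouse table. This gave 40 genes of the 14418 that could be joined by symbol. There were 41 such symbols in the pika table and 44 among the mouse genes. COL21A1 was in the pika table and not among the mouse symbols, and COL20A1, COL28A1, COL6A4 and COL9A3 were found among the mouse symbols and not in the pika table, so these 5 were not joined.

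The collagen genes were compared between 3 RNA-seq libraries of Tibetan pika fibroblasts and 3 of C57BL/6J mouse fibroblasts. Both sets of cells are labelled as coming from epidermis, were grown in DMEM with serum and were collected at 90% confluency. Neither group carries a named treatment, transgene or deletion, and no strain is given for the pika. Rat and rabbit fibroblast libraries and samples for ChIP-seq also belong to the series but are not analysed here. The labels do not give age, sex, passage or the number of animals. They also do not say whether the libraries of a species stand for different animals or cultures, so the p-values cover only how these libraries vary among themselves, a spread that may be technical. Species, genome assembly and gene annotation differ together between the groups and cannot be told apart.

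Values are the deposited FPKM, which counts fragments per length of the gene and per size of the library, rescaled in each library so that the joined genes sum to 1000000. They are called rescaled FPKM below, and a level on this scale is already per gene length. The totals behind the FPKM were between 7703576 and 8481030 reads in the pika libraries and between 3663102 and 5758950 in the mouse libraries. Of 14 fibroblast marker genes, 12 were in both tables, among them the collagen genes COL1A1, COL1A2, COL3A1 and COL6A3. Their summed level was between 12008 and 12402 rescaled FPKM in pika and between 14367 and 14671 in mouse. Single markers differed in both directions, such as FAP, averaging 41.7 in pika and 1.23 in mouse, and PDGFRA, averaging 3.47 in pika and 65.1 in mouse. Of 15 markers of keratinocytes, the type of cell that makes up most of the epidermis, 13 were in both tables, COL17A1 among them. They summed to between 171 and 184 in pika and between 71.2 and 82.8 in mouse. KRT5, KRT14, KRT10, KRT15 and IVL were listed at 0 in all pika libraries. PKP1, PERP and ITGA6 averaged 26.7, 70.4 and 77.2 in pika and 0.0734, 2.66 and 9.82 in mouse. DSP and SFN were lower in pika, at 0.153 and 1.05, than in mouse, at 45.2 and 10.8. The 5 smooth muscle markers, which are contractile genes, summed to between 29.9 and 35.1 in pika and between 11283 and 11510 in mouse. The 8 endothelial markers summed to between 0.707 and 1.60 in pika and between 34.5 and 39.5 in mouse. Most of the mouse sum was TEK, averaging 0.702 in pika and 31.4 in mouse. Each of the other endothelial markers averaged at most 1.23 in mouse and was under the level for testing. The 10 chondrocyte and adipocyte markers, which include COL2A1, COL9A1 and COL11A2, summed to between 5.04 and 5.22 in pika and between 84.8 and 85.7 in mouse. Most of the mouse sum was CEBPA, SOX9, FABP4 and PPARG, averaging 36.3, 19.8, 18.5 and 6.59 in mouse. COL9A1, ACAN, MATN1 and ADIPOQ went the other way, averaging 0.478, 1.71, 0.117 and 0.309 in pika and 0.168, 0.0988, 0 and 0 in mouse. The part of these markers in the collagen differences was not tested. In bulk RNA, fewer cells of a type and less RNA per cell cannot be told apart.

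Collagen chains fold into a helix in the endoplasmic reticulum, are secreted as procollagen and then assemble outside the cell. Fibrillar collagens, types I, III, V, XI, XXIV and XXVII among them, form the fibrils that give skin its strength. Type IV collagen forms the mesh of basement membranes, FACIT collagens sit on the surface of fibrils, and type VI collagen forms beaded microfilaments around cells. Dermal fibroblasts are the main source of types I and III collagen in skin.

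Among the 40 collagen genes, 26 were tested, those whose deposited FPKM averaged 1 or more in either species. Rescaling multiplied the deposited values by 2.16 to 2.17 in pika and by 5.25 to 5.37 in mouse. A gene could therefore enter at a lower rescaled level through pika than through mouse. Of the 26 tested, 3 were called higher in pika and 12 lower, where a call needed a log2 fold change of at least 1 in size with a limma-trend adjusted p under 0.05. The other 11 were not called. That is 57.7% called, where 52.2% of all 10348 tested genes were called, 28.7% higher and 23.5% lower in pika. The median log2 fold change, pika over mouse, was −0.94 over the 26 collagen genes and 0.21 over all tested genes. In 18 of the 26 the change lay below the median of all genes. With no filter the medians were −0.37 over all 40 collagen genes and −0.08 over all genes fitted. The 3 pika values and the 3 mouse values did not overlap in 25 of the 26, the exception being COL1A1, and 89.0% of all tested genes did not overlap either. The libraries of a species lay close together: the coefficient of variation of the tested collagen genes had a median of 3.21% in pika and 4.44% in mouse.

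**Figure D1:**
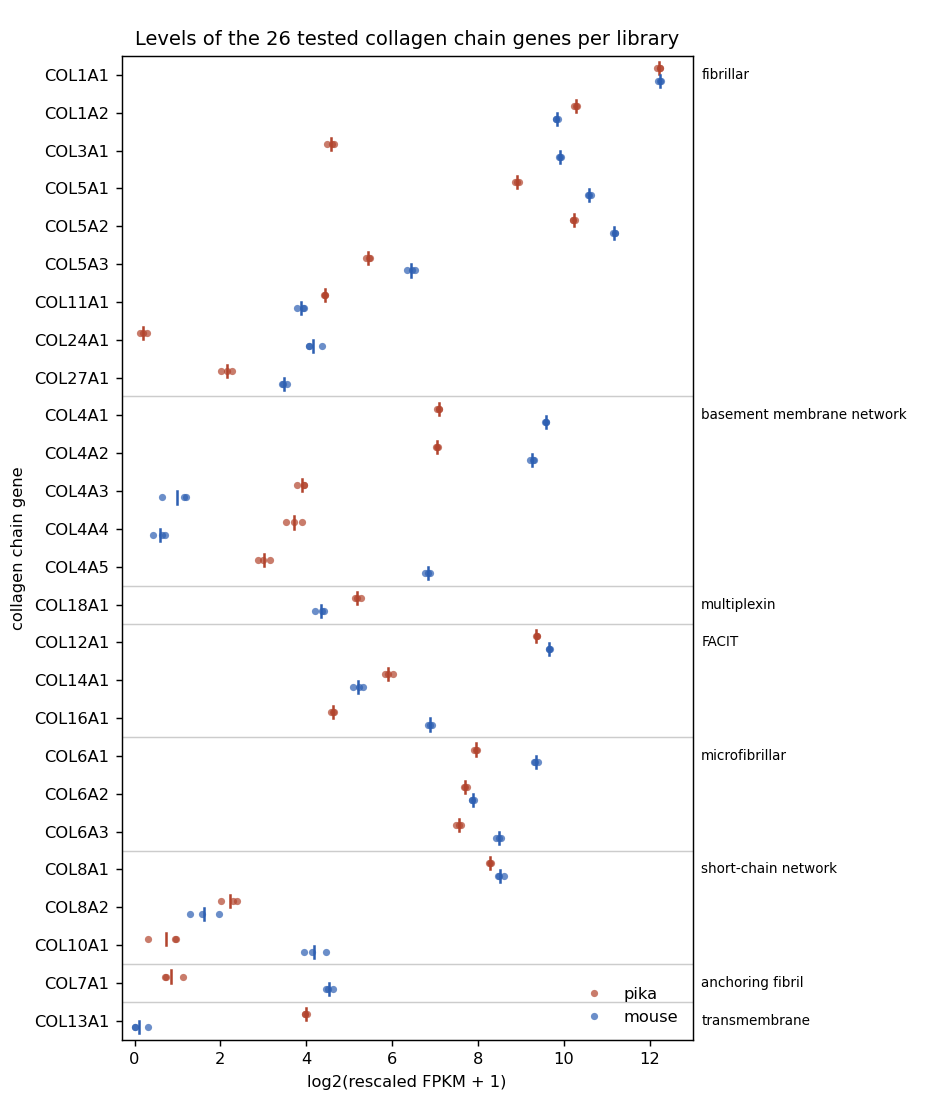
Level, as log2(rescaled FPKM + 1), of the 26 tested collagen genes, in the 3 pika and the 3 mouse fibroblast libraries, grouped by class; points are libraries and bars their mean. COL1A1 overlaps between the species, while COL3A1 averages 22.9 rescaled FPKM in pika and 954.8 in mouse.

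The direction of a single change depended on the scale between libraries. Joined genes accounted for 87.1% of all deposited FPKM in pika and for 37.0% to 38.3% in mouse, and without rescaling the median log2 fold change of all tested genes was 1.29. On that scale 10 collagen genes were called higher and 6 lower, where 69.0% of all tested genes were called, 58.3% higher and 10.7% lower. With median-of-ratios scaling 3 were called higher and 14 lower, where 46.5% of all tested genes were called, 21.9% higher and 24.7% lower. Without dividing by gene length 4 of 25 were called higher and 10 lower, where 52.8% of all genes in that fit were called, 25.5% higher and 27.2% lower. The collagen median minus the median of all genes was −1.15 in log2 with rescaling and −0.93 without it, and 18 of 26 collagen genes lay below the median of all genes in both. This difference was smaller in size without gene length (−0.52), with a filter at a mean FPKM of 5 (−0.64) and with no filter (−0.29 over all 40 collagen genes). The 3 higher calls held in every setting in which they were fitted, and so did 6 of the 12 lower calls, those of COL3A1, COL24A1, COL4A1, COL4A5, COL10A1 and COL7A1. However, COL4A3, COL4A4 and COL13A1, the 3 higher calls, passed the filter only through pika, and COL24A1, COL10A1 and COL7A1 only through mouse. The filter thus picked these genes through the species where they are high, and that their calls held is no added support. Ratios between chains and shares of the collagen sum, given further on, do not depend on this scale.

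**Figure D2:**
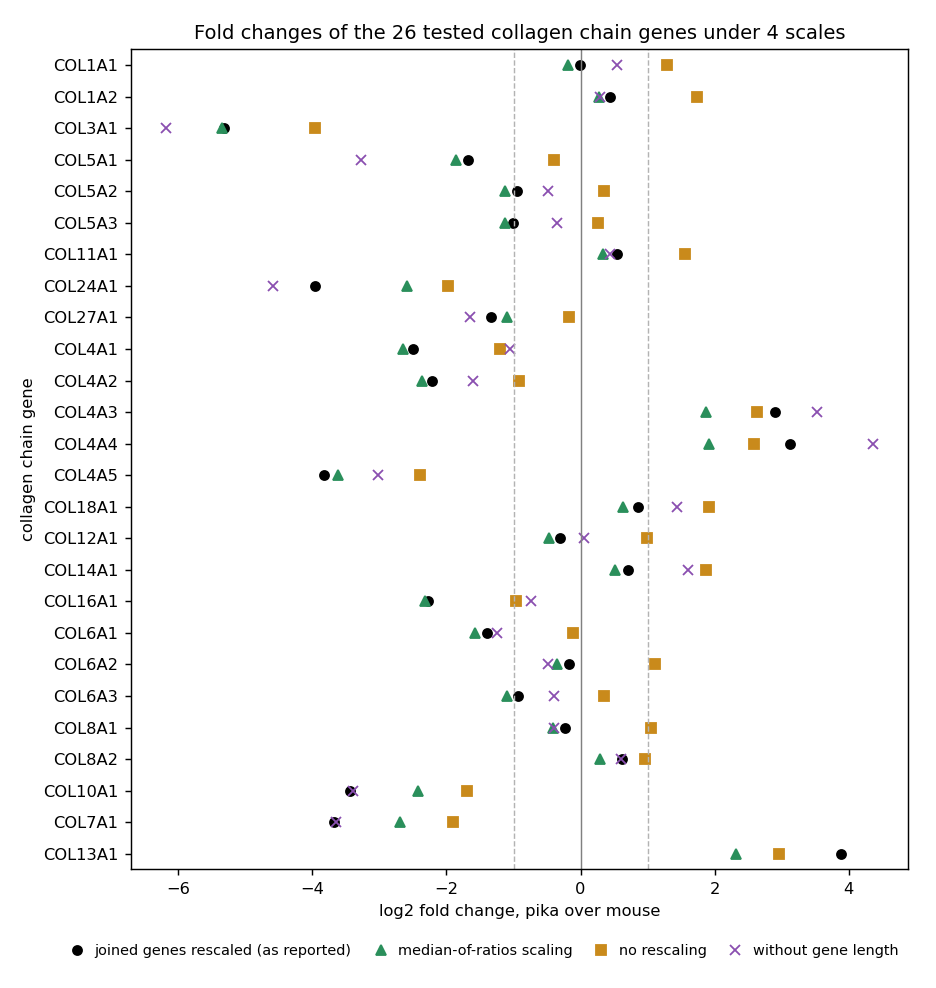
Log2 fold change, pika over mouse, of the tested collagen genes under 4 ways of setting the scale; dashed lines mark an absolute change of 1. COL3A1 stays to the left and COL4A3 and COL4A4 stay to the right under all 4, while COL1A1 moves from −0.01 with rescaled joined genes to 1.29 without rescaling.

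Type I collagen was the most abundant collagen in both species. COL1A1, its more plentiful chain, had 4854, 4871 and 4638 rescaled FPKM in the pika libraries and 4896, 4859 and 4677 in the mouse libraries. The groups overlapped, and COL1A1 ranked highest of all collagen genes in each. Its log2 fold change was −0.01 (SE 0.03, limma-trend adjusted p 0.81), 1.29 without rescaling and 0.55 without gene length. COL1A2, its partner chain, had 1249, 1258 and 1209 rescaled FPKM in pika and 895, 931 and 902 in mouse. All pika libraries were above all mouse libraries, and the log2 fold change of 0.45 did not reach the size needed for a call. COL1A2 was called higher without rescaling (1.74).

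Type III collagen differed most among the abundant chains. COL3A1, which forms fibrils together with type I collagen in soft skin, had 21.3, 24.2 and 23.2 rescaled FPKM in pika and 938, 955 and 971 in mouse. The lowest mouse library lay far above the highest pika library. COL3A1 averaged 22.9 ± 1.44 in pika and 954.8 ± 16.4 in mouse (SD, n = 3 each), a level 41.7-fold higher in mouse, for a log2 change of −5.32 (SE 0.05, limma-trend adjusted p 3.41e-12). The gene models behind the FPKM, recovered from the steps between values, came to 2663 bases in pika and 9816 bases in mouse for COL3A1. The pika model holds 686 reads over the 3 libraries and the mouse model 24967. Without dividing by length the log2 fold change was −6.18. The recovered lengths and reads may be too small by a shared whole factor, here and below.

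In the mouse genome Col3a1 lies next to Col5a2, on chromosome 1 at 45311538 to 45349706 and 45374331 to 45503282 of GRCm38.p6, 24624 bases apart. COL5A2, a chain of type V collagen, which is built into type I fibrils and sets their width, had 1222, 1184 and 1185 rescaled FPKM in pika and 2255, 2327 and 2340 in mouse. It was lower in every pika library, with a log2 fold change of −0.95 that missed the size for a call. It was called with median-of-ratios scaling (−1.12), and its sign turned without rescaling (0.35). Among the collagen genes COL5A2 came just after COL1A2 in pika and just after COL1A1 in mouse.

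COL5A1, the main chain of type V collagen, was called lower in pika. Its levels were 477, 494 and 464 rescaled FPKM in pika and 1541, 1576 and 1501 in mouse, for a log2 change of −1.68 (SE 0.03, limma-trend adjusted p 1.2e-10). Its recovered model was 1371 bases in pika and 8490 bases in mouse. The ratio of these lengths, mouse over pika, was 6.19, the largest among the tested collagen genes. These lengths may be too small by a shared whole factor, so the ratio between the full models is not known. Without rescaling the change of COL5A1 was −0.39 and the call was lost. COL5A3, the minor type V chain, had 43.5, 43.2 and 41.0 rescaled FPKM in pika and 87.6, 91.4 and 80.5 in mouse. Its log2 fold change of −1.005 lay at the threshold: the call was lost without pika replicate 3 (−0.98), mouse replicate 1 (−0.99) or mouse replicate 2 (−0.96), with a pseudocount of 5 (−0.94) and without gene length (−0.35), and the sign turned without rescaling (0.26).

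The remaining fibrillar chains were low. COL11A1, a type XI chain best known from cartilage, had 20.6, 20.5 and 20.7 rescaled FPKM in pika and 14.5, 14.1 and 12.8 in mouse, and was not called at a log2 fold change of 0.55, but was without rescaling (1.55). COL24A1, a fibrillar chain known from developing bone, had 0.152, 0.214 and 0.0973 in pika and 15.8, 19.6 and 15.8 in mouse. It was called lower at −3.96 (SE 0.16, limma-trend adjusted p 1.01e-08), and the pika values rest on 9 reads in all against 341 in mouse. COL27A1, a fibrillar chain of cartilage, averaged 3.44 ± 0.393 in pika and 10.2 ± 0.472 in mouse (SD, n = 3 each) and was called lower at −1.34, a call lost without rescaling (−0.17) and with a pseudocount of 5 (−0.85). In all, 5 of the 9 tested fibrillar chains were called lower and 4 were not called.

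The letters upstream of 2 of these mouse genes are shown because the chains they encode, both of skin fibrils, differed in size and direction of change. COL3A1 was 41.7-fold higher in mouse and COL1A2 1.36-fold higher in pika. The Col1a2 and Col3a1 windows run from 250 bases before to 50 bases after the gene's start on its own strand. They are from RefSeq on GRCm38.p6, and the matches are in capitals. The motifs searched were TATAAA, known as the TATA box, the CCAAT box, spelled as in its name, and GGGCGG, known as the GC box. Both strands were searched, and the matches printed do not overlap each other.
Col1a2, chr6:4505368-4505667, plus strand: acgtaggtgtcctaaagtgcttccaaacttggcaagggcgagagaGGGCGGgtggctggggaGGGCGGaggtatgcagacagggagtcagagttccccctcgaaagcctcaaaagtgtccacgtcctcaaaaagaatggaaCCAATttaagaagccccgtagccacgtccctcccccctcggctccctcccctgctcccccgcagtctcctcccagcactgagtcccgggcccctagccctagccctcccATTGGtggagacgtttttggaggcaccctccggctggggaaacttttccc
Col3a1, chr1:45311288-45311587, plus strand: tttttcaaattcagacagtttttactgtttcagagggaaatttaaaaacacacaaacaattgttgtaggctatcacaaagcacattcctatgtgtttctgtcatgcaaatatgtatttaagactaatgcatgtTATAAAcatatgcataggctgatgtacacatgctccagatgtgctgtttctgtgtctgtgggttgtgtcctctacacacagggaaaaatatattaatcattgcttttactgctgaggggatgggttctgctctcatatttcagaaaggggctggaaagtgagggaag
The Col1a2 window held 2 matches to CCAAT and 2 to GGGCGG, and its GC content was 61%. The Col3a1 window held 1 match to TATAAA and none to the other motifs, and its GC content was 37.7%. Windows were found for 32 of the 40 collagen genes, 35 windows in all. GGGCGG or its complement was in 62.9% of these and in 35.7% of all 32851 mouse windows of the same length. CCAAT was in 34.3% and 37.4%, and TATAAA in 14.3% and 13.6%. A match is a description of letters and not of binding, and the pika windows were not analysed here.

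Type IV collagen, the basement membrane network, split by chain. COL4A1 and COL4A2, which together form the common network, were called lower in pika, and so was COL4A5. COL4A3 and COL4A4, which join COL4A5 in the network known from kidney, lung and inner ear, were called higher. COL4A1 had 136, 136 and 131 rescaled FPKM in pika and 763, 771 and 755 in mouse. Its log2 fold change was −2.50 (SE 0.03, limma-trend adjusted p 1.3e-11), and −1.20 without rescaling.

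COL4A2 followed closely, with 133, 132 and 129 rescaled FPKM in pika and 620, 628 and 594 in mouse. Its log2 fold change was −2.22 (SE 0.04, limma-trend adjusted p 4.53e-11), and −0.92 without rescaling, where it was not called. The mouse genes lie head to head on chromosome 8 of GRCm38.p6, Col4a1 at 11198423 to 11312889 on the minus strand and Col4a2 at 11312805 to 11449287 on the plus strand, and share 85 bases. COL4A5 had 7.87, 6.36 and 6.99 rescaled FPKM in pika and 108, 114 and 118 in mouse, a level 16.0-fold higher in mouse, for a log2 change of −3.83 (SE 0.09, limma-trend adjusted p 4.66e-10).

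COL4A3 and COL4A4 ran the other way. COL4A3 had 14.5, 12.7 and 14.5 rescaled FPKM in pika and 0.561, 1.31 and 1.22 in mouse, a level 13.5-fold higher in pika. COL4A4 had 13.8, 12.2 and 10.6 in pika and 0.351, 0.546 and 0.626 in mouse, a level 24.0-fold higher in pika. In both genes every pika library was above every mouse library. The log2 fold changes were 2.89 (SE 0.18, limma-trend adjusted p 3.02e-07) for COL4A3 and 3.13 (SE 0.16, limma-trend adjusted p 7.6e-08) for COL4A4. The mouse levels rest on few reads, 26 for COL4A3 and 7 for COL4A4 over the 3 libraries, against 845 and 717 in pika. The mouse genes share 114 bases at their starts, Col4a4 at chromosome 1, 82448419 to 82587034, and Col4a3 at 82586921 to 82722059. COL4A6, a chain of smooth muscle and skin basement membranes, was under the level for testing, with 2.02, 2.02 and 1.54 rescaled FPKM in pika and 2.46, 3.45 and 1.94 in mouse, where the groups overlapped.

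One window from each of these head-to-head pairs is shown, because the pairs differed between the species in opposite directions. Source, window length, motifs and capitals are as for Col1a2. These windows are not placed on the gene starts given above, which on the minus strand are 11312889 for Col4a1 and 82587034 for Col4a4. More of each window lies within the gene than in the windows of Col1a2 and Col3a1.
Col4a1, chr8:11312777-11313076, minus strand: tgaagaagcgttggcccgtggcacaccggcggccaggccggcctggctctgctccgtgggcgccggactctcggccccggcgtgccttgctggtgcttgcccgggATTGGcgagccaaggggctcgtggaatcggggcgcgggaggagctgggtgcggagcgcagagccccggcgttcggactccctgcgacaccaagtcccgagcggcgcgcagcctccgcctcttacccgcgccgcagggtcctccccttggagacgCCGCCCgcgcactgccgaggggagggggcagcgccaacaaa
Col4a4, chr1:82586800-82587099, minus strand: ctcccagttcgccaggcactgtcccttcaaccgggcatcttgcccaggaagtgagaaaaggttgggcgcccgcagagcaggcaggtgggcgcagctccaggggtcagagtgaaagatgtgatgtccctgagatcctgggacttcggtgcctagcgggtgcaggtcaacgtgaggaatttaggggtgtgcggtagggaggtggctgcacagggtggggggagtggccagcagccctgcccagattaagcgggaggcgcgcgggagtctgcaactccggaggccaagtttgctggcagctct
The Col4a1 window held 1 match to CCAAT and 1 to GGGCGG, both on the complementary strand, and its GC content was 74%. The Col4a4 window held none of the 3 motifs, at a GC content of 63.3%, which says only that these letters are not in this window.

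COL18A1, a multiplexin of basement membranes whose end fragment is endostatin, had 37.7, 35.1 and 34.0 rescaled FPKM in pika and 20.4, 17.5 and 19.6 in mouse. Every pika library was above every mouse library, but the log2 fold change of 0.86 was not called. It was called without rescaling (1.92) and without dividing by gene length (1.44). COL15A1, the related chain, was under the level for testing in both species, at 1.21 ± 0.312 rescaled FPKM in pika and 2.16 ± 0.641 in mouse (SD, n = 3 each).

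Of the 3 FACIT chains tested, 1 was called. COL12A1, which links fibrils under load, was the most abundant, with 658, 658 and 650 rescaled FPKM in pika and 805, 803 and 816 in mouse, for a log2 change of −0.30 that was not called and turned to 0.99 without rescaling. COL14A1, which regulates fibril growth, had 58.7, 55.6 and 63.7 in pika and 38.7, 32.8 and 36.3 in mouse, for a log2 change of 0.71 that was not called, but was without rescaling (1.87) and without gene length (1.60). COL16A1, found near fibrils and basement membranes, was called lower, with 22.7, 23.8 and 24.0 in pika and 114, 121 and 116 in mouse. Its log2 fold change was −2.27 (SE 0.06, limma-trend adjusted p 7.79e-10). The COL16A1 call was lost without rescaling (−0.96) and without dividing by length (−0.74). The recovered model was 4850 bases in pika and 3375 in mouse. Either length may be too small by a shared whole factor, so they do not show which model is longer, and the value without length carries the same limit.

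Of the 3 tested type VI chains, which assemble into the beaded microfilaments, 1 was called lower and 2 were not called. COL6A1 had 247, 251 and 239 rescaled FPKM in pika and 678, 639 and 636 in mouse, and was called lower at −1.40 (SE 0.04, limma-trend adjusted p 7.17e-10), a call lost without rescaling (−0.11). COL6A2 had 213, 208 and 202 in pika and 231, 231 and 240 in mouse, for a log2 change of −0.17 that turned to 1.10 without rescaling. COL6A3, the long chain that carries the endotrophin fragment, had 193, 189 and 178 in pika and 356, 343 and 370 in mouse. It was not called at −0.93, reached −1.10 with median-of-ratios scaling and stood at 0.36 without rescaling. In each of the 3, the pika and mouse values did not overlap.

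Among the short-chain network collagens, COL8A1 was the abundant one. It is a chain of type VIII collagen, known from vessel walls and the eye, and had 313, 303 and 312 rescaled FPKM in pika and 352, 357 and 388 in mouse. The log2 fold change of −0.24 was not called and became 1.05 without rescaling. COL8A2, its partner chain, had 3.90, 3.05 and 4.23 in pika and 1.45, 2.90 and 1.97 in mouse, with 89 and 24 reads, and was not called, but was with all rows of a table summing to 1000000 (1.24). COL10A1, the collagen of hypertrophic cartilage, was called lower at −3.44 (SE 0.22, limma-trend adjusted p 3.06e-07). Its levels were 0.948, 0.250 and 0.911 in pika, from 9 reads, and 21.1, 14.3 and 16.6 in mouse, from 149 reads.

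The anchoring fibril and transmembrane classes had 1 tested member each, and both were called. COL7A1, the anchoring fibril collagen that fastens the epidermis to the dermis, had 0.634, 0.668 and 1.19 rescaled FPKM in pika and 23.8, 21.7 and 21.1 in mouse. Its level was 26.7-fold higher in mouse, for a log2 change of −3.68 (SE 0.16, limma-trend adjusted p 2.05e-08) from 83 reads in pika and 613 in mouse. COL13A1, a transmembrane collagen of cell contacts and the neuromuscular junction, had 14.6, 15.3 and 14.8 in pika. In mouse it was listed at 0 in 2 libraries and at 0.240 in mouse replicate 3. COL13A1 was called higher in pika at 3.89 (SE 0.16, limma-trend adjusted p 1.28e-08), a fitted value that depends on the pseudocount because the mouse level is at or near 0. No fit without gene length was made for COL13A1.

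The 14 collagen genes that were not tested had mean deposited FPKM of at most 0.862 in pika and 0.523 in mouse. COL22A1, COL25A1 and COL6A5 were listed at 0 in all 3 pika libraries, and none was at 0 in all mouse libraries. The others were COL2A1, COL9A1, COL9A2 and COL11A2, which are cartilage collagens, and COL4A6, COL6A6, COL15A1, COL17A1, COL19A1, COL23A1 and COL26A1. COL17A1, the hemidesmosome collagen of keratinocytes, had a mean deposited FPKM of 0.234 ± 0.113 in pika and 0.207 ± 0.161 in mouse (SD, n = 3 each).

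The ratio of one chain to another within a library does not depend on the scale between libraries. It was computed for 15 pairs of chains that share a molecule, a fibril or a class. COL1A1 to COL3A1, the balance of the main skin collagens, was 227.5, 201.5 and 200.1 in pika and 5.22, 5.09 and 4.82 in mouse. It averaged 209.7 ± 15.4 in pika and 5.04 ± 0.205 in mouse (SD, n = 3 each), 41.6-fold higher in pika, a log2 difference of 5.38. An exact two-sided permutation test gave p 0.1, the smallest p that 3 against 3 libraries allows. The log2 difference was 6.77 when reads were not divided by gene length. In all 15 ratios the pika and mouse libraries did not overlap, each had an exact permutation p of 0.1 and an adjusted p of 0.1 over the 15, and 9 differed at least 2-fold.

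**Figure D3:**
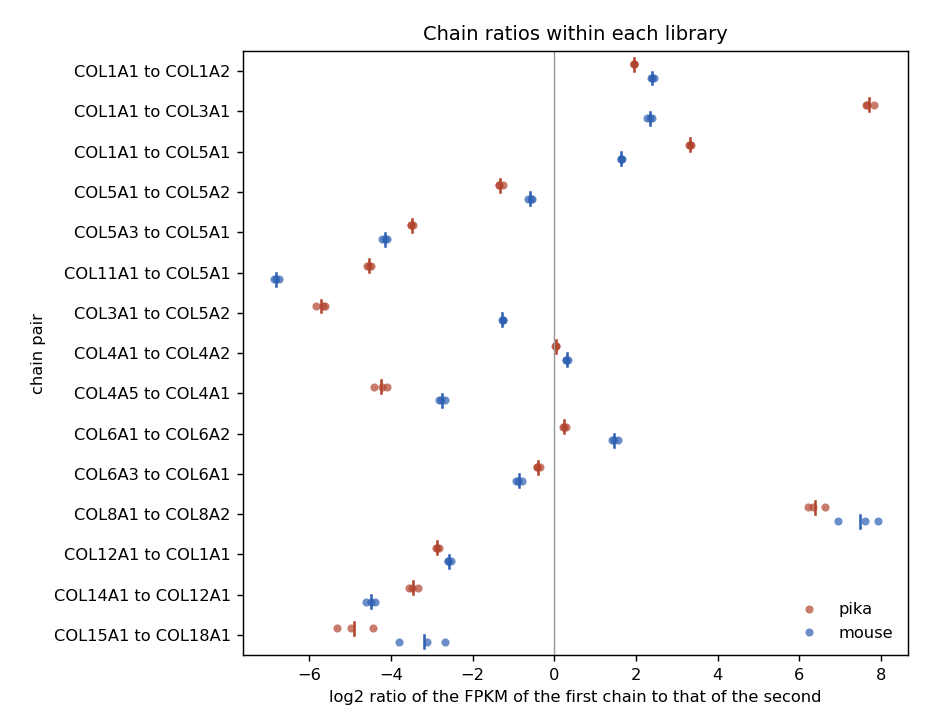
Log2 of the ratio between the FPKM of 2 chains in the 3 pika and the 3 mouse fibroblast libraries, for 15 pairs of chains; points are libraries and bars their mean. As ratios, COL1A1 to COL3A1 averages 209.7 in pika and 5.04 in mouse, while COL4A1 to COL4A2 averages 1.02 in pika and 1.24 in mouse.

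The ratio of the type I chains, COL1A1 to COL1A2, was 3.89, 3.87 and 3.84 in pika and 5.47, 5.22 and 5.19 in mouse, a log2 difference of −0.45 that turned to 0.26 without gene length. COL4A1 to COL4A2 was 1.02, 1.04 and 1.02 in pika and 1.23, 1.23 and 1.27 in mouse, a log2 difference of −0.28 that turned to 0.56 without gene length. Values without gene length use the recovered lengths, which may be too small by a shared whole factor. Whether the order of the species in these 2 ratios rests on the gene models was not tested. COL6A1 to COL6A2 was 1.18 ± 0.0253 in pika and 2.78 ± 0.144 in mouse, and COL6A3 to COL6A1 was 0.758 ± 0.0211 in pika and 0.548 ± 0.0297 in mouse (SD, n = 3 each). COL8A1 to COL8A2 averaged 84.6 in pika and 187.4 in mouse. Its log2 difference of −1.10 became 0.084 with a pseudocount of 1 where COL8A2 is low.

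Other ratios set chains of the fibril against each other. COL3A1 to COL5A2, chains of neighbouring genes, was 0.0175, 0.0204 and 0.0196 in pika and 0.416, 0.410 and 0.415 in mouse, 21.7-fold higher in mouse. COL1A1 to COL5A1, the bulk of a type I fibril against its nucleating chain, was 10.0 ± 0.157 in pika and 3.13 ± 0.0479 in mouse. COL11A1 to COL5A1 was 0.0431 ± 0.00164 in pika and 0.00895 ± 0.000445 in mouse. Within type V collagen, COL5A1 to COL5A2 was 0.400 ± 0.0152 in pika and 0.667 ± 0.0226 in mouse, and COL5A3 to COL5A1 was 0.0890 ± 0.00196 in pika and 0.0562 ± 0.00227 in mouse (SD, n = 3 each for these ratios). Ratios that hold COL5A1 depend on its gene models, whose recovered lengths given above may be too small.

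The remaining 4 ratios were within or between other classes. COL12A1 to COL1A1 was 0.137 ± 0.00279 in pika and 0.168 ± 0.00556 in mouse, and COL14A1 to COL12A1 was 0.0906 ± 0.00686 in pika and 0.0445 ± 0.00357 in mouse. COL4A5 to COL4A1 was 0.0526 ± 0.00574 in pika and 0.148 ± 0.00712 in mouse, so COL4A5 was also lower in pika as a multiple of COL4A1. COL15A1 to COL18A1 was 0.0343 ± 0.0105 in pika and 0.115 ± 0.0422 in mouse (SD, n = 3 each for these ratios).

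Collagen genes together made up 0.984% of the joined FPKM in pika and 1.48% in mouse. Their sum was 9839 ± 202.1 rescaled FPKM in pika and 14785 ± 120.9 in mouse (SD, n = 3 each). On the deposited scale the order was the opposite, 4552 ± 95.5 FPKM in pika and 2786 ± 26.6 in mouse, so the direction of the collagen sum depends on the scale. COL1A1 alone was 48.7% ± 0.350 of the collagen sum in pika and 32.5% ± 0.591 in mouse (SD, n = 3 each). The 5 highest chains held 84.9% of the sum in pika and 71.2% in mouse. In pika these were COL1A1, COL1A2, COL5A2, COL12A1 and COL5A1, and in mouse COL1A1, COL5A2, COL5A1, COL3A1 and COL1A2.

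By class, fibrillar chains held 79.2% ± 0.228 of the collagen sum in pika and 72.0% ± 0.337 in mouse. The basement membrane network held 3.06% ± 0.0247 in pika and 10.1% ± 0.0785 in mouse. FACIT chains held 7.51% ± 0.151 in pika and 6.51% ± 0.104 in mouse, microfibrillar chains 6.51% ± 0.0565 in pika and 8.40% ± 0.213 in mouse, and short-chain network collagens 3.19% ± 0.109 in pika and 2.61% ± 0.146 in mouse (SD, n = 3 each). The multiplexins held 0.374% in pika and 0.144% in mouse, transmembrane collagens 0.158% in pika and 0.0221% in mouse, and the anchoring fibril collagen 0.00848% in pika and 0.150% in mouse. None of the 9 class shares overlapped between the species, each with an exact permutation p of 0.1, the smallest the design allows. Without COL1A1, COL1A2 and COL3A1, the fibrillar share was 46.0% in pika and 49.0% in mouse, so its order turned, and the microfibrillar share was 16.9% in pika and 15.3% in mouse, which turned too. The basement membrane share remained lower in pika without these chains, 7.93% in pika and 18.4% in mouse, and without gene length, 3.02% in pika and 6.39% in mouse.

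**Figure D4:**
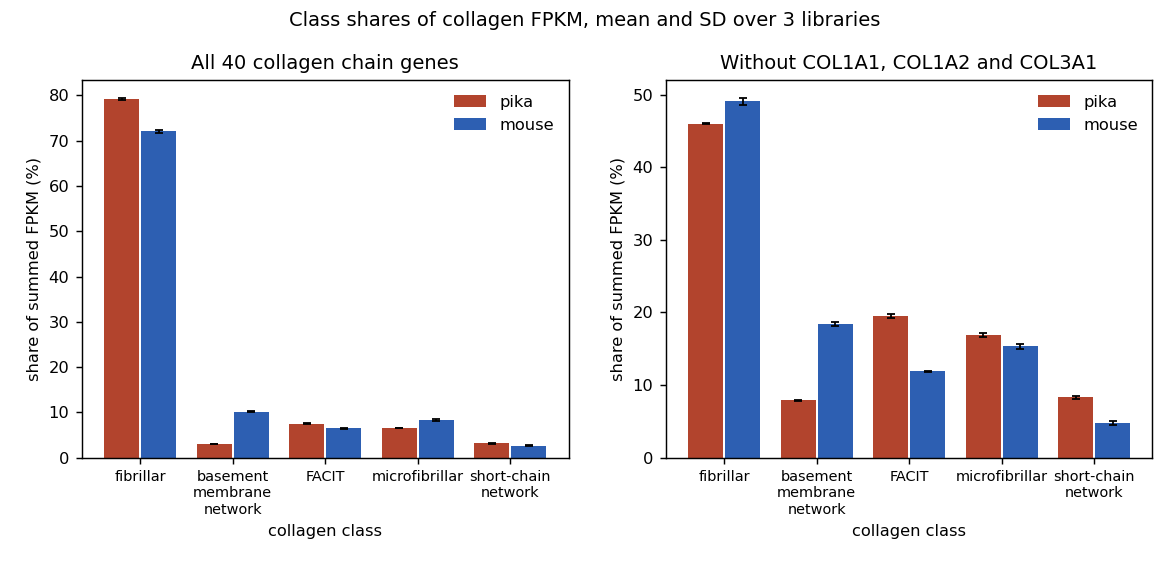
Share of the summed collagen FPKM held by the 5 largest collagen classes, in percent, as mean (bars) and SD (error bars) of 3 pika and 3 mouse libraries, over all 40 collagen genes and without COL1A1, COL1A2 and COL3A1. Over all 40 genes the basement membrane network averages 3.06% in pika and 10.1% in mouse, and the fibrillar class 79.2% in pika and 72.0% in mouse.

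The order of levels among the 26 tested collagen genes was compared between the species, with a Spearman rho of 0.81 and a Pearson r of 0.78 between mean log2 levels. Over all tested genes these were 0.62 and 0.59. Both are descriptions across genes, which are not independent and share the libraries. Most neighbours in the order were separated by more than their spread. In pika the neighbours whose values overlapped were COL1A2 and COL5A2, COL4A1 and COL4A2, COL16A1 and COL3A1, COL4A3 and COL4A4, and COL8A2 and COL27A1. In mouse they were COL8A1 and COL6A3, COL16A1 and COL4A5, COL18A1 and COL10A1, and COL10A1 and COL24A1.

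Genes that act on collagen were taken from lists chosen with earlier results of these data known. Of 20 tested folding and modification genes, 2 were called higher, 6 lower and 12 not, with a median log2 fold change of −0.49 where all tested genes had 0.21. P3H2, which hydroxylates prolines of type IV collagen, had 72.4, 68.4 and 71.7 rescaled FPKM in pika and 5.01, 2.72 and 3.57 in mouse, for a log2 change of 3.94 (SE 0.16). PLOD3, a lysyl hydroxylase that also adds sugars, was called lower at −1.56, and the isomerases FKBP14 and FKBP9 at −1.81 and −1.66. These last 3 calls were lost without rescaling. Of the 10 export genes 8 were not called, and KLHL12, which enlarges the vesicles that carry procollagen, was called higher at 2.15. MIA2, a cargo receptor gene, is listed at 0 in pika, whose table has a separate row under its older symbol CTAGE5, so no direction is given for it.

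Of 11 tested genes for propeptide removal and cross-linking, 2 were called higher, 6 lower and 3 not, with a median of −1.26. BMP1, which cuts the C-terminal propeptide, had 66.4, 72.1 and 65.0 rescaled FPKM in pika and 458, 456 and 434 in mouse, for a log2 change of −2.71 (SE 0.05). LOXL3, a cross-linking enzyme, was lower at −4.49. The N-propeptidases ADAMTS3 and ADAMTS14 were called in opposite directions, at 3.04 and −3.03. Of 19 tested fibril-associated partners, 4 were called higher, 11 lower and 4 not, with a median of −1.52. PRELP, OGN and FMOD, small leucine-rich proteins of the matrix, were lower at −6.82, −5.38 and −5.01. DPT, which binds decorin and fibrils, had 912, 895 and 883 rescaled FPKM in pika and 63.8, 51.2 and 56.5 in mouse, for a log2 change of 3.95 (SE 0.07).

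Of 8 tested receptors, 1 was called higher, 4 lower and 3 not, with a median of −0.58. ITGA11, a fibroblast integrin chain for fibrillar collagen, had 136, 129 and 128 rescaled FPKM in pika and 26.7, 28.8 and 28.7 in mouse, for a log2 change of 2.18 (SE 0.06). The collagen receptor kinases DDR1 and DDR2 were called lower at −5.79 and −1.22, DDR2 without a call when not rescaled (0.07), and MRC2, which takes up collagen fragments, at −4.89. All 5 tested degradation genes were called lower, with a median of −2.96. MMP2 (−3.51), MMP9 (−2.96), MMP13 (−3.28) and MMP14 (−1.29) are metalloproteinases, and CTSK (−2.24, not called without rescaling) is a collagen-cutting cathepsin. MMP14 was not called without rescaling either (0.0023). Of 16 regulators, 1 was called higher, 6 lower and 9 not, with a median of 0.02. TGFB2, a growth factor that induces collagen, was higher at 3.47, and the transcription factors SMAD3, SOX9 and EGR1 were lower at −3.27, −3.38 and −4.63. The related TGFB3 was called lower at −3.13. TGFB1 was not called at 0.95, but was called higher without rescaling (2.11). TGFB3 and TGFB1 were named after their values were seen. PPIB (1.24), LOXL2 (1.17), DCN (1.22), ASPN (2.51), NID2 (1.26) and ITGB1 (−1.19), named after their values were seen, complete the smaller counts of calls above. ITGB1 turned to 0.10 without rescaling and was not called there, PPIB was not called without gene length (0.44), and LOXL2 was not called with median-of-ratios scaling (0.99). The calls in these lists are from limma-trend with adjusted p under 0.05 and are read against the 52.2% of all tested genes called.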

How the data were processed

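The authors deposited 1 FPKM value per gene and library. Per the submitters' processing notes, which give no order, the tools were CASAVA 1.9, STAR 2.6.1a, edgeR 3.28.1 and featureCounts, and the build GRCm38. Which pika annotation was used is not stated there. Of 49585 mouse identifiers, 49326 had a symbol in the gene tables used here, and 3694 of 19398 pika rows were numbered LOC names. No table used here pairs the rat and rabbit identifiers with symbols.

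Joined genes were rescaled to sum to 1000000 per library. Genes whose deposited FPKM averaged 1 or more in either species entered limma-trend (R 4.3.3, limma 3.58.1), fitted to log2(value + 1), two-sided, with Benjamini-Hochberg adjustment over all tested genes, and fold changes on this scale understate the change of low genes. A call needed a log2 fold change of at least 1 in size beside an adjusted p under 0.05. Ratios and shares were tested with exact permutation tests over libraries.

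FPKM values are whole multiples of the value of 1 read, from which library totals, gene model lengths and reads were recovered. Lengths and reads can be too small by a shared whole factor. They enter descriptions of depth, the comparison of libraries below, and the fit, ratios and shares without gene length. With these reads, the chi-square per gene (mean) between libraries of a species lay between 1.34 and 1.53 in pika and between 1.17 and 1.25 in mouse. Sampling alone gives about 1, and reads recovered too small lower the value. All libraries were kept as separate, and whether they are technical repeats cannot be told from these values. By the recovered lengths, the median ratio of the mouse model to the pika model was 2.22. Read numbers cover counting error only.

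Every collagen gene could be named. From each other list up to 4 called genes with the largest absolute change were named, and where fewer than 2 were called up to 2 others. Named beyond this rule were MMP14, SFN, KRT5, KRT14, KRT10, KRT15, IVL, ACAN, MATN1 and ADIPOQ. So were the genes said above to be named after their values were seen. The members, lists and ratios were chosen with earlier results of these data known. Scripts ran in Python 3.11.15 with numpy 2.4.6, pandas 2.3.3 and matplotlib 3.10.9, and were tested on simulated data. Alternatives were other scalings, pseudocounts of 0.1 and 5, no filter and a filter at 5, limma without trend, a fit without gene length, a replicate block and leaving out each library.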

Additional observations from a re-analysis of the deposited data

How the results depend on the processing

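Scale mattered most. Without rescaling 6029 joined genes were called higher and 1106 lower, and 10 collagen genes higher and 6 lower. With all rows of a table summing to 1000000 these were 6035, 1283, 10 and 8. A filter at 5 left 1584 joined genes called lower. Among collagen genes the sign turned without rescaling, and with all rows summing to 1000000, for COL1A1 (1.29 and 1.20), COL5A2 (0.35 and 0.26), COL5A3 (0.26 and 0.18), COL6A2 (1.10 and 1.02), COL6A3 (0.36 and 0.27), COL8A1 (1.05 and 0.96) and COL12A1 (0.99 and 0.90), and without gene length for COL1A1 (0.55) and COL12A1 (0.047). The COL1A1 log2 fold change lay between −0.027 and 0.016 when a library was left out. DDR2 turned to 0.067 without rescaling. MITF, a melanocyte marker, turned to 0.90 without rescaling, 0.85 with all rows summing to 1000000 and 0.51 without gene length. Without gene length the log2 differences of COL1A1 to COL1A2 (0.26) and COL4A1 to COL4A2 (0.56) turned, as did the short-chain share (−0.195 points) and that of COL26A1 (−8.01e-05 points). The COL8A1 to COL8A2 difference turned to 0.084 with a pseudocount of 1. Without COL1A1, COL1A2 and COL3A1 the fibrillar share difference was −3.07 points and the microfibrillar one 1.57. Beyond the setting changed, the cause of these turns was not tested. Of 410 collagen fold changes under the alternatives, 363 kept their direction and side of the threshold, 13 gained a call and 15 lost one in the same direction, and 19 changed sign. Leaving out each library in turn gave 2940 to 2984 joined genes higher and 2416 to 2448 lower, 3 collagen genes higher each time and 11 to 12 lower. With the replicate block 2972 joined genes were called higher and 2433 lower, and 3 collagen genes higher and 12 lower. Same-numbered libraries did not deviate together (r of −0.009, 0.048 and 0.009), so the numbers do not pair the samples. Under a sign-flip test within pairs the smallest p is 0.25. Depth limits COL24A1, COL10A1, COL8A2 and the mouse levels of COL4A3, COL4A4 and COL13A1.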
